A study of Mus musculus with 4 samples.

Results

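The 8 genes examined here encode proteins that neurons make in response to activity. They are the nuclear receptors Nr4a1, Nr4a2 and Nr4a3, the transcription factor Npas4, the synaptic proteins Arc, Homer1 and Nptx2, and the phosphatase Dusp1. They were chosen by gene symbol, and each was found on 1 row, so they make 8 of the 15409 gene rows listed for brain septal tissue. RNA sequencing compared 2 TCRb-/- libraries with 2 wild-type (WT) libraries. TCRb-/- mice cannot make the T cell receptor's beta chain, so they have no alpha-beta T cells but keep gamma-delta T cells. Septal tissue of 4 to 5 mice was pooled for a library, and experiments 1 and 2 each gave 1 library per genotype. All mice, WT included, went through 30 min of restraint daily on 3 days, and tissue was taken 1.5 h after the final restraint. No unrestrained mice were analysed here, so the values give levels after restraint and not their induction by it. The labels used here give no strain, sex or age. A replicate in what follows is a pool of animals, and nothing in the labels says whether the experiments differed in dissection, day or handling.

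When a neuron fires, calcium enters through NMDA receptors and voltage-gated channels and activates kinases that phosphorylate CREB, while MAP kinases act on partners of SRF. These factors, with MEF2, switch on immediate-early genes within minutes and without new protein synthesis. Npas4 depends on calcium entry more strictly than most of them, and its mRNA is short-lived. Arc and the short form of Homer1 weaken or remodel excitatory synapses, and Nptx2 is secreted and clusters AMPA receptors. The NR4A proteins act as transcription factors without a known hormone, and Dusp1 removes phosphate from MAP kinases and so limits the signal that induces the others. Dusp1 is also induced by glucocorticoids.

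The promoters of the genes are shown first because CREB binds the cAMP response element (CRE), whose core TGACG is shared by many genes that follow activity together. RefSeq start-site windows on GRCm38.p6, each from 250 bases before to 50 bases after an annotated start, were found for 6 of the 8 genes, all but Arc and Nptx2. The window of every one of these 6 genes held at least 2 cores, counted on both strands with overlapping matches included. Nr4a1, Nr4a2 and Nr4a3 held 4 each, Homer1 and Dusp1 3 each, and Npas4 2. The stretches below run 5′ to 3′ on the gene's strand, from 15 bases before the first core to 15 bases after the last, and capitals mark TGACG or its reverse complement CGTCA.
Nr4a1: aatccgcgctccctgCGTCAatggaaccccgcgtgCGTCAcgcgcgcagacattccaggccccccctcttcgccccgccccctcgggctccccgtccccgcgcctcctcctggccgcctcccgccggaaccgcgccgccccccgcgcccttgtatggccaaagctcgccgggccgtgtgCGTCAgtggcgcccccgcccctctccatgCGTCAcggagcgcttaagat
Nr4a2: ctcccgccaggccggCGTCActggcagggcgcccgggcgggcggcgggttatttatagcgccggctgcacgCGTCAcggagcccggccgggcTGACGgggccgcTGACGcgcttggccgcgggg
Nr4a3: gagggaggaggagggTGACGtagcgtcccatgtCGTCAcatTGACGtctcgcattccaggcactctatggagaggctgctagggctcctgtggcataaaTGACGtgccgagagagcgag
Npas4: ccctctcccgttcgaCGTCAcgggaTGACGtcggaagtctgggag
Homer1: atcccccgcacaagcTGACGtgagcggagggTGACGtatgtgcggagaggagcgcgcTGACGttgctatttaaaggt
Dusp1: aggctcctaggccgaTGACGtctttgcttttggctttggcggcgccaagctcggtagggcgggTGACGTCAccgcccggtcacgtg
The stretches lie at chr15:101266598-101266825 (plus strand) for Nr4a1, chr2:57124095-57124218 (minus) for Nr4a2, chr4:48045059-48045177 (plus) for Nr4a3, chr19:4990121-4990165 (minus) for Npas4, chr13:93303686-93303762 (plus) for Homer1 and chr17:26508593-26508678 (minus) for Dusp1, in GRCm38.

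Among all 32851 windows of this length, 5.01% held at least 2 cores and 0.231% held at least 4. Among the 9690 windows with at least 60% G and C, a group that holds the first window of each of the 6 genes, the shares were 9.30% and 0.557%. The full palindrome TGACGTCA was found for Dusp1 alone of the 6, at 143 bases before its start, where it makes up 2 of the 3 cores. That palindrome was in 1.79% of all windows. The cores of Homer1 lay closest to the start, with first bases 56, 40 and 14 bases before it, whereas the 2 cores of Npas4 lay 179 and 169 bases before its start. A second Homer1 window, around another annotated start, held 0 cores. The NR4A response element AAAGGTCA was present in 1.51% of all windows. The CArG box bound by SRF, taken as CC, then 6 bases of A or T, then GG, was present in 1.63%. Both were searched on both strands as exact matches and were in none of the 7 windows. Sites 1 base off these patterns were not counted. Of the other activity-related genes listed for comparison, 7 of 19 immediate-early transcription factors and 9 of 26 other activity-induced effectors had a window with at least 2 cores, against 10.3% of 10513 genes tested that had a window. The other lists had 1 of 9 dual-specificity phosphatases, 1 of 5 heterodimer partners of NR4A and NPAS4, 0 of 4 Homer partners, 0 of 2 pentraxin and AMPA receptor genes and 0 of 15 upstream signalling genes. A match is a string of letters and was not shown here to be bound.

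**Figure D1:**
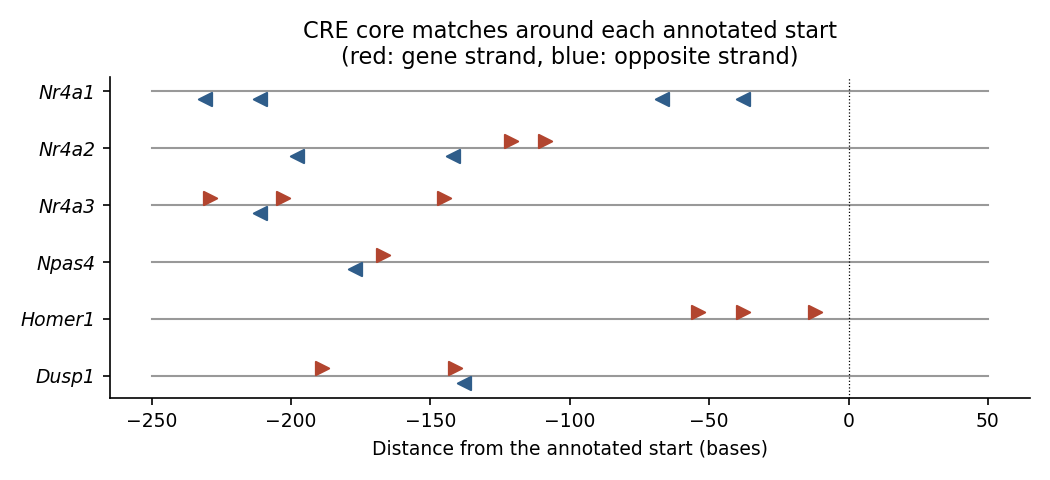
Matches to the CRE core in the first start-site window of 6 genes, by distance in bases from the annotated start (dotted line at 0); red triangles are matches on the gene's strand and blue triangles on the opposite strand. Nr4a1, Nr4a2 and Nr4a3 hold 4 matches each, and those of Homer1 lie nearest to the start.

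The 4 libraries held between 19988137 and 26210790 reads. Levels are given in CPM, the read count of a gene scaled to the total of its library, and 1 read was worth between 0.0382 and 0.050 CPM. Trbc2, a constant-region gene of the missing receptor chain, checked the labels. It had 0 reads in both TCRb-/- libraries and 6.45 and 3.85 CPM in WT. A floor set at 3 reads would be 0.122 and 0.150 CPM in TCRb-/- replicates 1 and 2. All 5 neuron and all 8 septum markers were listed, and the summed septum markers lay between 187 and 199 CPM in the 4 libraries. Within that sum, 3 of the 8 (Prdm16, Slc18a3 and Slc5a7) were lower and 3 (Zic1, Zic4 and Dach2) higher in both experiment 2 libraries, and 4 were lowest in TCRb-/- replicate 2. Markers of neighbouring regions differed between libraries. The 8 striatum markers summed to 3172 and 607 CPM in the TCRb-/- libraries of experiments 1 and 2, and to 2825 and 1535 CPM in WT, and all 8 were lowest in TCRb-/- replicate 2. The 8 cortex and hippocampus markers summed to 228 and 72.2 CPM in TCRb-/- and to 287 and 66.8 CPM in WT, and the 8 choroid plexus markers to 1328 and 4732 CPM and to 725 and 2771 CPM. Endothelial markers summed to between 8.36 and 13.3 CPM, with 5 of 6 listed, and 3 of 8 T cell and 1 of 5 red blood cell markers were listed. In pooled tissue, fewer cells of a type and less RNA per cell cannot be told apart.

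Arc was the most abundant of the 8 genes per kilobase of exon, and Npas4 and Nr4a3 were the least. On the scale of CPM per kilobase of annotated exon (RPKM, with the union of GENCODE M21 exons), Arc had 37.8 ± 7.32 (SD over the 4 libraries), Dusp1 17.0 ± 1.73, Nr4a1 12.8 ± 3.34, Nptx2 7.27 ± 1.45, Homer1 7.03 ± 2.98, Nr4a2 4.40 ± 0.927, Nr4a3 0.811 ± 0.221 and Npas4 0.599 ± 0.539. On this scale Arc did not overlap any other gene, with a lowest library of 30.4 RPKM against a highest of 19.5 for Dusp1. The only other neighbours in this order whose ranges did not overlap were Nr4a2 (lowest library 3.75 RPKM) and Nr4a3 (highest 1.07 RPKM). The order from Dusp1 to Nr4a2, and that of Nr4a3 and Npas4, is not beyond the spread of neighbours. The place of Homer1 and the separation of Arc depend on the length used. The exon union of Homer1 is 11.976 kb, over 12 annotated transcripts. With the median protein-coding transcript of 2468 bases its mean was 34.1, close to Arc (37.8) and Dusp1 (31.2). With median transcripts the libraries of Arc spanned 30.5 to 47.7, those of Dusp1 28.2 to 35.6 and those of Homer1 17.7 to 49.6, so Arc overlapped both. The counts are per gene, so the short activity-induced form of Homer1 and the long constitutive forms are summed.

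Nr4a1 (Nur77), on chromosome 15 from 101254269 to 101274795, is an immediate-early gene of both neurons and T cells. TCRb-/- replicates 1 and 2 held 48.5 and 28.2 CPM of it, and the WT libraries 55.6 and 46.7 CPM. The library of TCRb-/- replicate 2 was low, and the other 3 lay between 46.7 and 55.6 CPM. Nr4a2 (Nurr1), needed for midbrain dopamine neurons and expressed in other forebrain neurons, lies on chromosome 2 from 57106830 to 57124003. It had 17.2 and 15.7 CPM in TCRb-/- and 23.3 and 15.2 CPM in WT, so that WT replicate 1 was high and the other 3 libraries lay close together. Nr4a3 (Nor1), on chromosome 4 from 48045153 to 48086447, had 6.39 and 3.65 CPM in TCRb-/- and 5.53 and 3.85 CPM in WT, or between 73 and 157 reads. Its 2 experiment 2 libraries lay below its 2 experiment 1 libraries, and the genotypes overlapped. The 3 receptors thus differed in which library stood apart: TCRb-/- replicate 2 for Nr4a1, WT replicate 1 for Nr4a2, and no single library for Nr4a3.

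Npas4 encodes a neuron-specific factor that balances excitation and inhibition, and lies on chromosome 19 from 4984355 to 4990316. The TCRb-/- libraries held 141 and 20 Npas4 reads (5.74 and 1.00 CPM) and the WT libraries 55 and 24 (2.1 and 1.07 CPM). TCRb-/- replicate 1 stood far above the other 3 libraries, and its exact 95% Poisson interval of 4.83 to 6.76 CPM did not meet that of WT replicate 1, 1.58 to 2.73 CPM. Such intervals leave out biological spread. They may also be too narrow for counting error, since amplified reads are not independent molecules.

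Arc, on chromosome 15 from 74669083 to 74672570, had 146 and 93.1 CPM in TCRb-/- and 117 and 107 CPM in WT. The TCRb-/- libraries were thus the highest and the lowest of the 4, with WT between them. Homer1, on chromosome 13 from 93299635 to 93405129, encodes a scaffold that links metabotropic glutamate receptors to intracellular calcium stores. It had 104 and 43.6 CPM in TCRb-/- and 122 and 66.5 CPM in WT, so that both experiment 2 libraries lay far below both experiment 1 libraries and TCRb-/- was the lower genotype each time. Nptx2 (neuronal pentraxin 2), on chromosome 5 from 144545902 to 144557478, had 18.8 and 23.2 CPM in TCRb-/- and 17.6 and 14.3 CPM in WT. Nptx2 was highest in the library, TCRb-/- replicate 2, in which Homer1, Arc and Nr4a1 were lowest.

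Dusp1, on chromosome 17 from 26505590 to 26562128, had 54.3 and 51.0 CPM in TCRb-/- and 56.1 and 64.4 CPM in WT. Both TCRb-/- libraries lay below both WT libraries, by a small margin in experiment 1. It was the steadiest of the 8 genes relative to its level, with an RPKM of 17.0 ± 1.73. Its exons share 11 bases with Ergic1 on the other strand, the only exon overlap with another annotated gene among the 8.

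**Figure D2:**
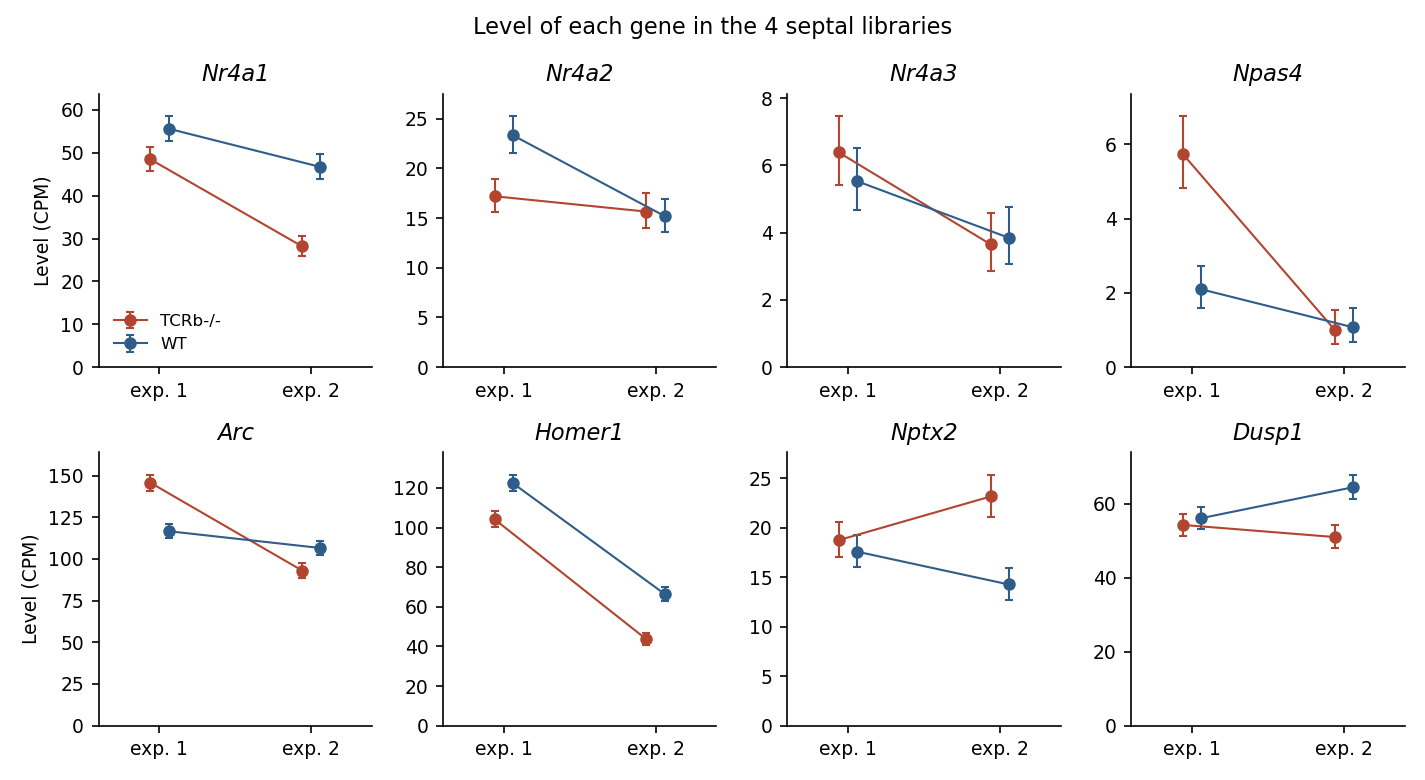
Level in CPM (from 0) of each gene in experiments 1 and 2, with 1 library per genotype and experiment; bars are exact 95% Poisson intervals of the read count and lines join the libraries of a genotype. Homer1 falls in both genotypes, Npas4 is highest in TCRb-/- replicate 1 (5.74 CPM), and Nptx2 and Dusp1 move in opposite directions in the 2 genotypes.

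The comparison of genotypes asked whether these genes differed between TCRb-/- and WT septum after restraint. None of the 8 passed the adjusted threshold, and the largest differences were a higher Npas4, a lower Nr4a1, a lower Homer1 and a higher Nptx2 in TCRb-/-. On the log2(CPM + 1) scale the differences (TCRb-/- minus WT) were 0.53 (SE 0.60) for Npas4, -0.45 (SE 0.28) for Nr4a1, -0.41 (SE 0.48) for Homer1 and 0.37 (SE 0.19) for Nptx2. They were -0.19 for both Nr4a2 (SE 0.24) and Dusp1 (SE 0.14), and 0.06 for both Nr4a3 (SE 0.30) and Arc (SE 0.23). The median over the 8 genes was -0.07, against 0.00069 over all 13912 genes tested.

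In limma with genotype as the only term, 0 of the 8 genes passed an adjusted p of 0.05 (each 1.00), and 0 of all genes tested (0%) did. At an unadjusted p under 0.05 the counts were 0 of 8 and 43 genes (0.309%). With the experiment as a block, 0 of the 8 passed after adjustment, against 2 genes (0.0144%) of all. Unadjusted block p-values were under 0.05 for 3 of the 8, against 5.64% of all genes. These were Homer1 (unadjusted p 0.00313, adjusted p 0.777, SE 0.10), Nr4a1 (0.00688, 0.848, SE 0.12) and Nptx2 (0.0369, 0.848, SE 0.15) in limma. The block removes the difference between experiments from the error, and the adjusted values still did not pass. An exact permutation test of 2 libraries against 2 cannot give a p below 0.333 and was not used.

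The genotypes did not overlap for 2 of the 8 genes, Nptx2 (higher in TCRb-/-) and Dusp1 (lower). They did not overlap for 17.8% of all genes tested, with TCRb-/- lower in 8.04% and higher in 9.76%. Within the experiments, Nr4a1, Homer1 and Dusp1 were lower in TCRb-/- in both (3 of 8, against 24.5% of all genes) and Nptx2 was higher in both (1 of 8, against 27% of all genes). In each of these 4 genes the difference was larger in experiment 2. The ratio of TCRb-/- to WT was 0.872 (95% counting interval 0.807 to 0.942) for Nr4a1 in experiment 1 and 0.603 (0.544 to 0.669) in experiment 2. For Homer1 it was 0.851 (0.808 to 0.897) and 0.656 (0.602 to 0.713). For Dusp1 it was 0.967 (0.898 to 1.04) and 0.791 (0.729 to 0.858), and for Nptx2 1.07 (0.935 to 1.22) and 1.62 (1.40 to 1.88). The intervals of Dusp1 and Nptx2 include 1 in experiment 1, so their difference there is within counting error. The TCRb-/- library of experiment 2 also had the lowest summed striatum markers (607 CPM), and their part in these ratios was not tested.

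For the other 4 genes the sign of the genotype difference turned between experiments, as it did for 48.4% of all genes tested. Npas4 was 2.73-fold higher in TCRb-/- than in WT in experiment 1 (1.99 to 3.80) and at a ratio of 0.932 (0.488 to 1.76) in experiment 2. Arc was at 1.25 (1.19 to 1.31) and 0.873 (0.821 to 0.928), in opposite directions and with both counting intervals leaving out 1. Nr4a2 was at 0.737 (0.649 to 0.835) and 1.03 (0.880 to 1.20), and Nr4a3 at 1.15 (0.915 to 1.46) and 0.950 (0.685 to 1.31), neither of the latter beyond counting error. With 1 library per genotype in an experiment, these ratios have no replicate check, and the difference between experiments was not tested.

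**Figure D3:**
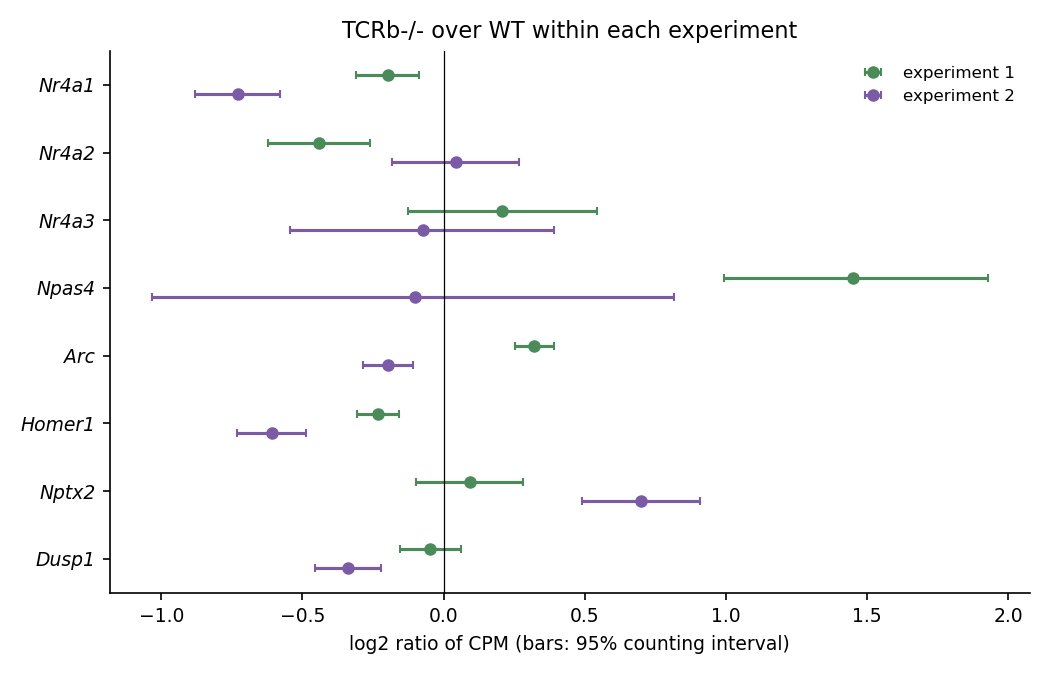
log2 ratio of CPM in TCRb-/- over WT for each gene within experiment 1 (green) and experiment 2 (purple), with 95% counting intervals that leave out biological spread. Nr4a1, Homer1 and Dusp1 lie below 0 and Nptx2 above 0 in both experiments, while Npas4 and Arc lie above 0 in experiment 1 and below 0 in experiment 2.

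The comparison of experiments gives the background against which the genotype differences stand. Homer1, Npas4, Nr4a3 and Arc were lower in experiment 2 and passed the threshold in limma. Homer1 fell by 1.06 (SE 0.18, adjusted p 0.00860) on the log2(CPM + 1) scale, from 113 ± 12.9 to 55.0 ± 16.2 CPM (SD, n = 2 each). Npas4 fell by 1.17 (SE 0.33, adjusted p 0.0405), Nr4a3 by 0.55 (SE 0.16, adjusted p 0.0406) and Arc by 0.39 (SE 0.11, adjusted p 0.0447) in limma. That is 4 of 8 genes, all lower, where limma called 23.7% of all genes and 14.7% as lower.

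Nr4a1 differed by -0.51 (SE 0.20, limma adjusted p 0.105) and passed with the genotype as a second term, the same model as the replicate block (SE 0.12, adjusted p 0.0235). The block called 24.7% of all genes, 15.4% as lower, and changed no other call among the 8. Nr4a2 differed by -0.36 (SE 0.15, adjusted p 0.118), Dusp1 by 0.05 (SE 0.11, adjusted p 0.752) and Nptx2 by 0.0035 (SE 0.20, adjusted p 0.991) in limma. The experiments did not overlap in 6 of the 8 genes, all lower in experiment 2. They did not overlap in 67.3% of all genes tested, 37.2% lower and 30.1% higher in experiment 2. Read within each genotype, 6 of the 8 genes were lower in experiment 2 in both genotypes (42.2% of all genes tested) and 0 were higher in both (35.1%). The median over the 8 genes was -0.45 and over all genes tested -0.03. Homer1 and Npas4 had the largest differences of the 8, and 1.49% and 0.985% of all genes tested had a larger absolute difference than each. For Arc that share was 21.4%.

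**Figure D4:**
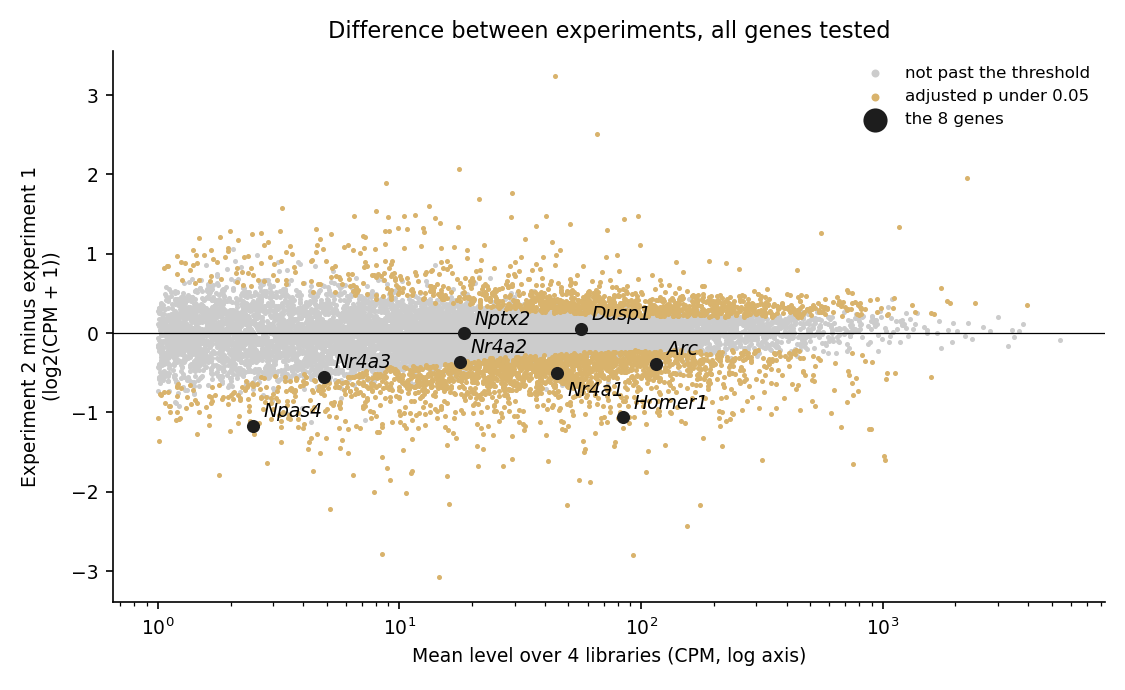
Difference between experiments (log2(CPM + 1), experiment 2 minus experiment 1) against the mean level over 4 libraries (CPM, log axis) for 13912 genes, with genes past an adjusted p of 0.05 in ochre and the 8 genes in black. Homer1 (-1.06) and Npas4 (-1.17) lie lowest of the 8, Arc (-0.39) and Nr4a3 (-0.55) nearer to the genes that did not pass, and Nptx2 and Dusp1 near 0.

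All 4 calls rest on the mean-variance trend in limma, since without it the adjusted p was 0.0551 for Homer1, 0.0505 for Nr4a3, 0.0958 for Npas4 and 0.129 for Arc. With the trend, the calls differed in how they held when a library was left out. Homer1 passed without any 1 of the 4 libraries, with limma adjusted p-values from 1.90e-07 to 0.0416 and differences from -1.35 to -0.76. Npas4 did not pass without TCRb-/- replicate 1, where its difference was -0.61 (adjusted p 0.162 in limma). Arc did not pass without TCRb-/- replicate 1 (-0.23, adjusted p 0.174) or without TCRb-/- replicate 2 (-0.29, adjusted p 0.115) in limma. Nr4a3 did not pass without any 1 library (adjusted p from 0.0512 to 0.194 in limma). Nr4a1 passed without WT replicate 2, at -0.86 (adjusted p 8.86e-05 in limma), and was at -0.15 without TCRb-/- replicate 2.

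The size of the change between experiments was compared within each genotype. In TCRb-/-, the ratio of experiment 2 to experiment 1 was 0.174 (95% counting interval 0.103 to 0.280) for Npas4, 0.418 (0.387 to 0.452) for Homer1, 0.572 (0.427 to 0.760) for Nr4a3, 0.581 (0.525 to 0.643) for Nr4a1 and 0.638 (0.603 to 0.675) for Arc. In WT, the same genes were at 0.512 (0.303 to 0.840), 0.543 (0.510 to 0.577), 0.695 (0.526 to 0.914), 0.839 (0.775 to 0.909) and 0.914 (0.866 to 0.964). These 5 were grouped after their values were seen, as those of the 6 genes lower in both genotypes with the lower ratio in TCRb-/-. The intervals of Nr4a3 in the 2 genotypes overlapped. The share of all genes with this order is not reported here. Nr4a2, also lower in both genotypes, had the reverse order, at 0.910 (0.784 to 1.06) in TCRb-/- and 0.651 (0.569 to 0.745) in WT. Nptx2 was at 1.24 (1.08 to 1.41) in TCRb-/- and 0.811 (0.701 to 0.938) in WT, and Dusp1 at 0.940 (0.865 to 1.02) and 1.15 (1.07 to 1.24). These 2 of the 8 had opposite signs in the genotypes, as did 22.7% of all genes tested. Whether the genotypes differ in these changes was not tested, since each ratio rests on 1 library over 1. Of the 8 genes, 6 were lowest in TCRb-/- replicate 2, as were 31.7% of all genes tested.

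**Figure D5:**
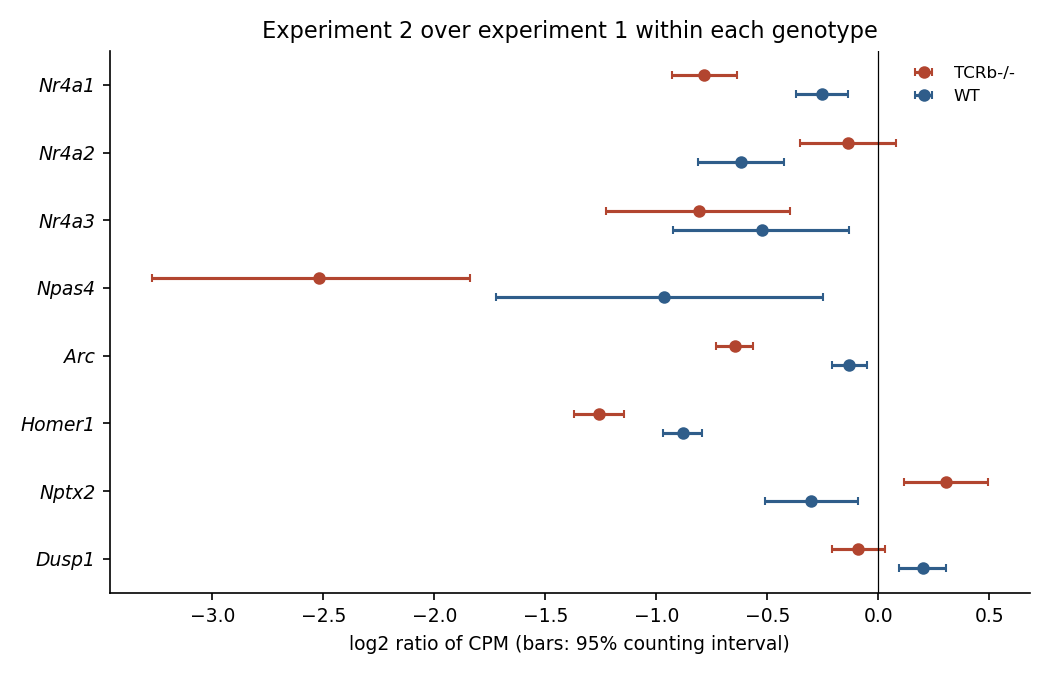
log2 ratio of CPM in experiment 2 over experiment 1 for each gene within TCRb-/- (red) and WT (blue), with 95% counting intervals that leave out biological spread. Npas4, Homer1, Nr4a3, Nr4a1 and Arc lie below 0 in both genotypes and further below in TCRb-/-. Nr4a2 lies below 0 in both and further below in WT, and Nptx2 and Dusp1 have opposite signs in the 2 genotypes.

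Markers of neighbouring regions moved with the same split. All 8 striatum markers and 7 of 8 cortex and hippocampus markers were lower in both experiment 2 libraries, where all 8 choroid plexus and 7 of 8 thalamus markers were higher. Neurons of striatum, cortex and hippocampus express Homer1 and Arc. The part of these markers in the difference of the 8 genes was not tested. Among neuron markers, 2 of 5 were lower and 2 of 5 higher in both experiment 2 libraries, and their sum lay between 5123 and 5616 CPM. After removal of a trend on exon length, an alternative chosen after seeing the data, Homer1 and Arc still passed, whereas Nr4a3 was at -0.43 (adjusted p 0.0993) and Npas4 at -1.13 (adjusted p 0.0505) in limma. Homer1 was at -0.85 there. That fit called 2274 of 13556 genes, 1176 of them lower in experiment 2. The main fit called 3292 of 13912 genes, 2047 of them lower.

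Genes related to the 8 by pathway were counted in the same fits, from lists chosen with earlier results of these data known. By genotype, limma called 0 genes of each list with or without the block, against 2 of all genes with it. At an unadjusted p under 0.05 with the block, which 5.64% of all genes tested reached, there were 3 of 25 immediate-early factors (Junb, Egr1 and Egr2), 4 of 31 effectors (Gadd45g, Plk2, Siah2 and Spry2) and 2 of 6 pentraxin and AMPA receptor genes (Nptxr and Gria1). Mef2c and Camk4, of the 20 upstream genes, also did. The count over that list is not reported here, so the list cannot be set beside the 5.64%. Of the phosphatases, Homer partners and heterodimer partners, 0 did. Most of those names were chosen after their values were seen. Between experiments, the immediate-early transcription factors (25 tested of 26) had 9 genes called lower in experiment 2 and 3 called higher, with a median of -0.25. Egr3, induced by MAP kinase signalling, fell by 1.10 (SE 0.15, adjusted p 0.00549 in limma), and the clock factor Npas2 by 1.12 (SE 0.12, adjusted p 0.00400 in limma). The 3 called higher were Fos, Jund and Cebpb, named after their values were seen. Fos rose by 0.41 (SE 0.12, adjusted p 0.0399 in limma), in the direction opposite to Npas4, Arc and Homer1.

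Among other activity-induced effectors (31 tested of 34), 5 were called lower and 2 higher, with a median of -0.11. Plk2, a kinase that weakens active synapses, fell by 1.06 (SE 0.20, adjusted p 0.0118 in limma) and Ptgs2, the inducible cyclooxygenase, by 1.00 (SE 0.22, adjusted p 0.0185 in limma). The 2 called higher, Nrn1 and Rheb, were named after their values were seen. The other dual-specificity phosphatases (10 tested of 11) had 3 called lower and 0 higher, with a median of -0.17, where Dusp1 was at 0.05. Dusp6, an ERK phosphatase, fell by 0.37 (SE 0.08) and Dusp7 by 0.27 (SE 0.07), with adjusted p-values of 0.0203 and 0.0293 in limma, and Dusp8, named after its values were seen, was the third.

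Of Homer proteins and their partners (9 tested), 4 were called lower and 0 higher, with a median of -0.27. Itpr1, the calcium store channel that Homer proteins bind, fell by 1.13 (SE 0.13, adjusted p 0.00501 in limma), about as far as Homer1, and Shank2 fell by 0.54 (SE 0.10, adjusted p 0.0112 in limma). Grm5 and Dlgap1, the other two, were named after their values were seen. Homer2 and Homer3 did not pass. Of the pentraxin and AMPA receptor genes (6 tested), 4 were called lower and 0 higher, with a median of -0.48. Nptx1, another neuronal pentraxin, fell by 0.93 (SE 0.07, adjusted p 0.00191 in limma), while Nptx2 was at 0.0035. Gria3 fell by 0.55 (SE 0.09, adjusted p 0.00718 in limma), and Gria1 and Gria2, named after their values were seen, were the others called.

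Of 20 upstream calcium, MAP kinase, CREB, MEF2 and SRF genes, 11 were called lower and 0 higher, with a median of -0.44. Mef2c fell by 1.15 (SE 0.16, adjusted p 0.00598 in limma) and Camk4, a nuclear calcium-dependent kinase that acts on CREB, by 1.06 (SE 0.23, adjusted p 0.0171 in limma). Of the 5 heterodimer partners of NR4A and NPAS4 proteins, 4 were called lower and 0 higher, with a median of -0.52. Rxrg, a retinoid receptor rich in striatum, fell by 1.03 (SE 0.26, adjusted p 0.0274 in limma) and Arnt by 0.90 (SE 0.14, adjusted p 0.00780 in limma), and Rxra and Arnt2, named after their values were seen, were the others. The list medians stand beside -0.03 for all genes tested, of which 14.7% were called lower and 8.95% higher.

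By genotype, the list genes with the largest differences among those that did not overlap included Homer3 (0.30), Dusp4 (-0.30), Crtc3 (-0.29), Siah2 (-0.24), Maff (0.22), Tiparp (-0.17), Jun (-0.12) and Dusp10 (-0.08), none past the threshold. The counts without overlap, lower and higher in TCRb-/-, were 1 and 1 of 25 immediate-early factors and 3 and 0 of 31 effectors. They were 2 and 0 of 10 phosphatases, 0 and 2 of 9 Homer partners and 1 and 0 of 20 upstream genes. The pentraxin and AMPA receptor genes and the heterodimer partners had 0. Over all genes tested the shares were 8.04% lower and 9.76% higher. Dusp4 had 6.51 and 5.85 CPM in TCRb-/- and 8.62 and 7.16 CPM in WT. Crtc3, a CREB coactivator, had 11.4 and 10.1 CPM in TCRb-/- and 13.5 and 13.1 CPM in WT. The medians by genotype lay between -0.10 for the upstream genes and 0.05 for the pentraxin and AMPA receptor genes.

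The genes whose centred log2(CPM + 1) values over the 4 libraries lay nearest to each of the 8 were sought among 9815 other genes whose mean level reached 10 CPM. The nearest were Dennd4a for Nr4a2 (root mean square distance 0.00905), Atp6v0a2 for Arc (0.00923), Ppp2r2c for Nr4a3 (0.0120), Panx1 for Dusp1 (0.0256), Emilin2 for Nptx2 (0.0506), Utrn for Nr4a1 (0.0579) and Kcna4 for Homer1 (0.0673). For Npas4 the nearest, Pcdhgc5, lay at 0.277 and Npas2 at 0.290. The distance grows with a gene's own spread (root mean square of its centred values), which was 0.705 for Npas4 and 0.122 for Dusp1. The mean of Npas4, 2.48 CPM, is also below the 10 CPM limit for the genes searched. These distances rest on 4 libraries and are a description. Kcna4, a potassium channel subunit, had 25.5 and 11.0 CPM in TCRb-/- and 28.8 and 15.2 CPM in WT, which follows the order of Homer1.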

How the data were processed

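Brain septal RNA was sequenced in 4 libraries, 2 of TCRb-/- and 2 of WT mice. The authors deposited log2 values, 1 column per library per the file headers. The values themselves show that these are log2 CPM, with 0.5 added to each count and 1 to the library total, since solving for the total gave whole reads for 100% of values within 0.001 reads. The submitters' processing notes name HISAT2 2.1.0, SAMtools 1.3, HTSeq 0.9.1, R 4.0.5, limma 3.46.0 and the build mm10, with no role or order. No source used here gives the annotation or the rule by which rows were listed. Per the labels' protocols, RNA came from the supernatant of a lysate cleared by centrifugation before and after detergent. The protocols do not state whether reads were counted by strand.

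Spike-in rows (17) were left out. The recovered reads were scaled to CPM. Genes whose mean reached 1 CPM (13912, all 8 members among them) were compared as log2(CPM + 1), a scale on which changes of low genes look smaller. Tests used limma 3.58.1 in R 4.3.3 with a mean-variance trend, two-sided, Benjamini-Hochberg adjustment over all genes and a threshold of 0.05. The code was run on simulated libraries that held only the tested difference. That run does not cover a genotype fit in which the experiments also differ. Python 3.11.15 with scipy 1.17.1 gave exact 95% counting intervals and the motif counts. With 1 library per genotype and experiment, no pools share both, so no p-value measures the spread between like pools. The error of the genotype fit holds the difference between experiments, and that of the experiment fit holds the genotype difference. The error of the block fit is what is left after both. Each is moderated by limma over all genes. The experiment in the labels pairs the replicate numbers, and deviations from the genotype means correlated at 0.719 across genes between the same-numbered libraries. Named genes were the 8 members; in each list up to 2 called genes with the largest difference between experiments and up to 2 with the largest genotype difference among genes whose genotypes did not overlap; for each member the 2 nearest profiles; and markers. Exceptions are marked, and some genes the rule names are not reported here. The members and lists were chosen with earlier results of these data known. Alternatives were other pseudocounts, filters, scalings, moderation, voom weights, the block, a length trend and leaving out each library.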

Additional observations from a re-analysis of the deposited data

Results flagged for a closer look

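In 4 genes the TCRb-/- minus WT difference on the log2(CPM + 1) scale had opposite signs in experiments 1 and 2, with 1 library per genotype in each, and the difference was not tested. It was 1.12 and -0.05 for Npas4 (a change of -1.17), 0.32 and -0.19 for Arc (-0.51), -0.42 and 0.04 for Nr4a2 (0.46), and 0.18 and -0.06 for Nr4a3 (-0.24). In 2 genes the change from experiment 1 to 2 had opposite signs in TCRb-/- and WT, also not tested. It was 0.29 and -0.28 for Nptx2 (a difference of 0.57) and -0.09 and 0.20 for Dusp1 (-0.29). Among all genes tested, 48.4% turned sign between experiments in the genotype comparison and 22.7% between genotypes in the comparison of experiments.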

How the results depend on the processing

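Of 276 values recomputed with all 4 libraries under another setting, 244 kept their direction and side of the threshold, or stayed within 1.5 times for counts. That share says little about the calls between experiments. The members' genotype differences (limma adjusted p 0.673 or higher) had no call to lose. A lost call, or a count of genes that fell by more than 1.5 times, made up 20 of the values. By genotype, no member passed under any alternative run. With all 4 libraries and no block, 0 genes passed in limma (43 at an unadjusted p under 0.05). With the replicate block, and with the block plus a length trend, quantile normalization or voom weights, the count was 2. Between experiments, Nr4a1 passed with the block (-0.51) and with the block plus a length trend (-0.51), quantile normalization (-0.44) or voom weights (-0.49), and no other member's call changed with the block alone. Npas4 lost its call at a pseudocount of 5 CPM (-0.53), with voom weights (-1.70) and with the length trend removed (-1.13). Arc lost it under median-of-ratios scaling (-0.35) and quantile normalization (-0.36). Nr4a3 lost it after quantile normalization, whether or not the block was fitted (-0.48), with the length trend removed with and without the block (-0.43) and with the block and voom weights (-0.66). Without a mean-variance trend, Homer1 (-1.06), Npas4 (-1.17), Nr4a3 (-0.55) and Arc (-0.39) all missed the threshold, with and without the block, as did Nr4a1 with the block (limma adjusted p 0.111), and the count between experiments fell from 3292 to 629, and to 0 with the block, where 4816 genes had an unadjusted p under 0.05 in limma. Nptx2, near 0 between experiments, changed sign with voom weights (-0.012) and with the length trend removed with and without the block (-0.080). The cause was not tested. Of 3292 calls between experiments 2047 were lower, and of 3227 under quantile normalization 1593 were. The filter at 10 CPM left out Npas4 and Nr4a3, which have no value there, and moved the members' median by genotype to -0.19.

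With 1 library left out, its partner is assumed to vary like the others, and genotype and experiment are no longer balanced. Counts ranged from 0 to 47 genes by genotype (47 without TCRb-/- replicate 1) and from 1406 to 3390 between experiments (1406, 1823 and 1637 without TCRb-/- replicate 1, TCRb-/- replicate 2 and WT replicate 1). By genotype, differences ranged from -0.83 to -0.07 for Nr4a1, -0.48 to 0.10 for Nr4a2, -0.27 to 0.39 for Nr4a3, -0.34 to 1.41 for Npas4, -0.26 to 0.38 for Arc, -1.03 to 0.21 for Homer1, 0.23 to 0.52 for Nptx2 and -0.29 to -0.09 for Dusp1. Between experiments they ranged from -0.86 to -0.15 for Nr4a1, -0.57 to -0.15 for Nr4a2, -0.64 to -0.46 for Nr4a3, -1.73 to -0.61 for Npas4, -0.55 to -0.23 for Arc, -1.35 to -0.76 for Homer1, -0.33 to 0.33 for Nptx2 and -0.11 to 0.22 for Dusp1. The median of the 8 by genotype ranged from -0.27 to 0.22. Depth limits Npas4 most, at 20 and 24 reads in the experiment 2 libraries.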
